A study of Saccharomyces cerevisiae with 8 samples.

Results

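The genes described here are 10 protein-coding genes of the budding yeast Saccharomyces cerevisiae whose mRNAs are reported to carry short reading frames upstream of the coding sequence: GCN4, CPA1, CAD1 (also called YAP2), YAP1, CLN3, HAP4, TIF4631, SCO1, INO2 and DCD1. They were picked by their systematic identifiers from earlier reports of such frames and not by a measured value, but with earlier results of these data known. They are 10 of the 5976 protein-coding genes and of the 11993 features in the deposited table. The question asked of them was which of these mRNAs depend on the RNA helicase Upf1, the core of nonsense-mediated decay (NMD).

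The sequenced RNA was total RNA of strain BY4741, a haploid laboratory yeast, and every group carried the alleles MATa his3Δ1 leu2Δ0 met15Δ0 ura3Δ0. Wild-type (WT) cells had no further change, while upf1 cells also carried the allele labelled upf1*::kanMX4, a disruption of the Upf1 gene by a drug-resistance cassette. Cultures in YPD at 30 °C and an optical density of 0.5 received, for 15 min, either cycloheximide (CHX, 100 µg/ml), which blocks translation elongation, or an equal volume of its solvent DMSO. The 4 groups, WT or upf1 with DMSO or CHX, had 2 libraries each.

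An upstream reading frame is translated before the ribosome reaches the coding sequence, and a ribosome that stops at its end terminates far from the end of the mRNA. Termination of that kind can recruit Upf1 and lead to decapping and decay of the mRNA, which needs translation, so that a block of elongation also stops it. Some mRNAs with upstream frames are known to escape: the yeast GCN4 and YAP1 leaders are reported to hold elements, bound by the RNA-binding protein Pub1, that protect them. The frame of CPA1 is a different case, because its arginine attenuator peptide stalls the ribosome when arginine is plentiful and is known to direct the mRNA to NMD.

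The upstream frames are shown because their length and their distance from the coding start differ widely among the 10 genes. They were read from the reference genome, build R64, as an ATG in the stretch of 600 nt before the coding start followed by an in-frame stop, and are written 5′ to 3′ on the strand of the gene. Printed are, for each gene, the nearest such frame that ends before the coding start, and in addition the other GCN4 frames and the next frame of HAP4. Capitals mark the start codon and, where the whole frame is printed, the stop codon. The 4 GCN4 frames stand first, from the one farthest from the coding start to the nearest.
GCN4 frame 361 nt before the coding start, chrV:140113-140124, minus strand: ATGgcttgcTAA
GCN4 frame 293 nt before the coding start, chrV:140048-140056, minus strand: ATGtgtTAA
GCN4 frame 176 nt before the coding start, chrV:139928-139939, minus strand: ATGtacccgTAG
GCN4 frame 151 nt before the coding start, chrV:139903-139914, minus strand: ATGtttccgTAA
YAP1 frame 85 nt before the coding start, chrXIII:253763-253783, plus strand: ATGaacacgagccattttTAG
CAD1 frame 56 nt before the coding start, chrIV:1319314-1319331, minus strand: ATGgggtgttactttTAA
CLN3 frame 315 nt before the coding start, chrI:67824-67835, minus strand: ATGgatttcTGA
HAP4 frame 249 nt before the coding start, chrXI:231978-232007, plus strand: ATGctatctacaggtccactttacactTAA
HAP4 frame 61 nt before the coding start, chrXI:232166-232177, plus strand: ATGggttgcTGA
SCO1 frame 49 nt before the coding start, chrII:311490-311501, minus strand: ATGttcgtaTAA
INO2 frame 143 nt before the coding start, chrIV:699606-699611, minus strand: ATGTGA
DCD1 frame 28 nt before the coding start, chrVIII:388743-388754, minus strand: ATGctacacTAA
CPA1 frame 134 nt before the coding start, chrXV:882765-882842, plus strand, first 30 of 78 nt: ATGtttagcttatcgaactctcaatacacc
TIF4631 frame 104 nt before the coding start, chrVII:823955-824020, plus strand, first 30 of 66 nt: ATGattcttcctcttcccttcaatttctta

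The printed frames ranged from the INO2 frame of 6 nt, a start codon followed directly by a stop, to the CPA1 frame of 78 nt, which has 25 codons before its stop and is the arginine attenuator peptide. Frames not printed, farther from the coding start, reached 237 nt in DCD1 and 222 nt in CLN3, and may not lie in the mRNAs. That of DCD1 began 491 nt before the coding start, outside its counted feature, which exceeded the coding length by 174 nt. The next ATG of INO2 (20 nt before the coding start) and of CAD1 (22 nt before it) opened a frame that overlapped the coding start. Upstream ATGs were common among other genes too. Within 250 nt before the coding start, 9 of the 10 genes had at least 1 ATG, with a median of 2.5, against 90.8% of 5957 protein-coding genes with a median of 3 (the ATG trinucleotide on the sense strand, in any frame). CLN3 had none in that stretch. The reference annotation used here does not mark where these leaders begin, so which of the upstream ATGs, printed or not, lie in an mRNA is not known from it.

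**Figure D1:**
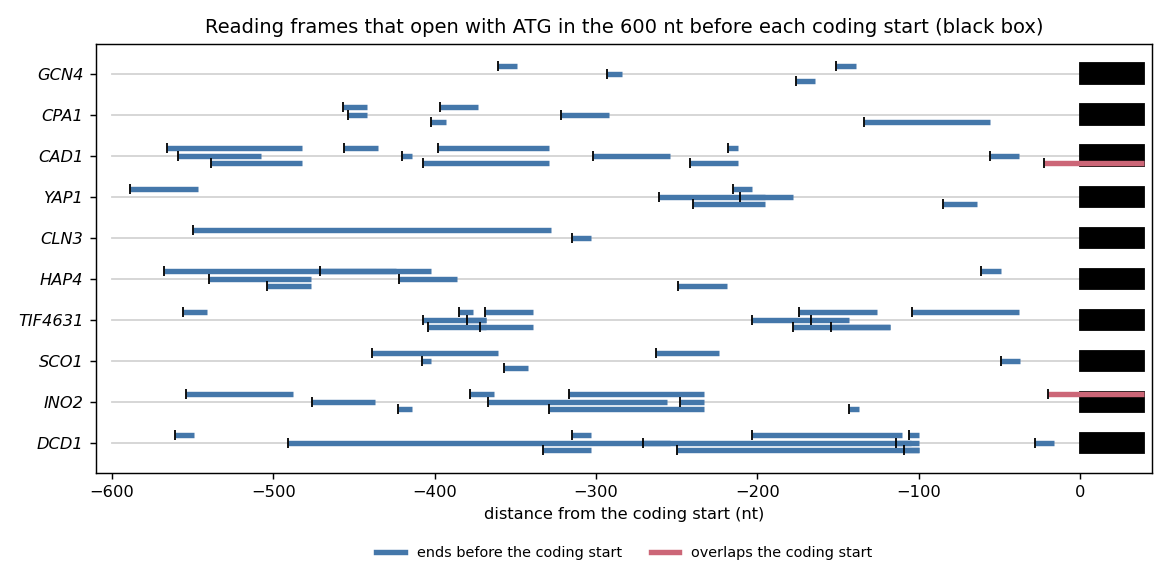
Upstream ATG frames of the 10 genes, with distance from the coding start in nt on the x axis and 1 row per gene; each bar runs from an ATG to its in-frame stop, coloured by whether the frame ends before the coding start. CLN3 has its nearest ATG 315 nt away, while DCD1, INO2 and CAD1 have one 28, 20 and 22 nt away.

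The libraries held between 9.1 and 25.66 M reads (M for 1e+06, recovered from the densities), and all 10 genes passed the filter on low values, with 147 reads of INO2 in WT with DMSO (replicate 1) as the lowest count and 21490 reads of GCN4 in upf1 with CHX (replicate 1) as the highest. NAM7, the gene of Upf1, had at least 1901 reads in each WT library and at most 161 in each upf1 library, which matched the labels. The values are normalized read densities, reads per length of feature on a scale that matches the small nucleolar RNAs (snoRNAs), and on it the median protein-coding gene was 0.57 higher (log2) in upf1 than in WT with DMSO and 1.55 higher in WT with CHX than with DMSO. Each change is therefore given on the deposited scale and again after rescaling on mRNAs, where those medians were -0.11 and 0.07. The library medians of protein-coding genes were themselves apart between the genotypes on the deposited scale. As ratios they were 0.477 and 0.501 (WT) and 0.739 and 0.854 (upf1) with DMSO. With CHX they were 1.37 and 1.47 (WT) and 1.67 and 2.05 (upf1). Genotypes that do not overlap on that scale are therefore not particular to a gene. Whether the snoRNAs or the mRNAs changed cannot be told apart with these values. With 2 replicates a group, called biological in the series design, p-values measure the spread between these libraries.

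Per length of feature, GCN4 had the highest density of the 10 in WT with DMSO, 4.21 ± 0.188 (SD, n = 2), and INO2 the lowest, 0.0934 ± 0.00295. Between them stood, in order, TIF4631, CPA1, YAP1, CLN3, CAD1, SCO1, DCD1 and HAP4. In that order the replicates of SCO1 and DCD1 overlapped, as did those of DCD1 and HAP4, and the other neighbours did not overlap. In upf1 with DMSO, CPA1 stood above TIF4631 by its mean, at 2.11 and 2.35 against 1.86 and 2.38, and these neighbours overlapped. All 10 genes have a single coding exon. The counted features were longer than the coding sequences for 9 of the 10 genes. The CPA1 feature had exactly its coding length of 1236 nt, so its upstream frame is not in its count. The CAD1 feature exceeded its coding length by 53 nt, less than the 56 nt to the start of its printed frame. Whether the excess of a feature lies before or after the coding sequence is not known from these values.

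**Figure D2:**
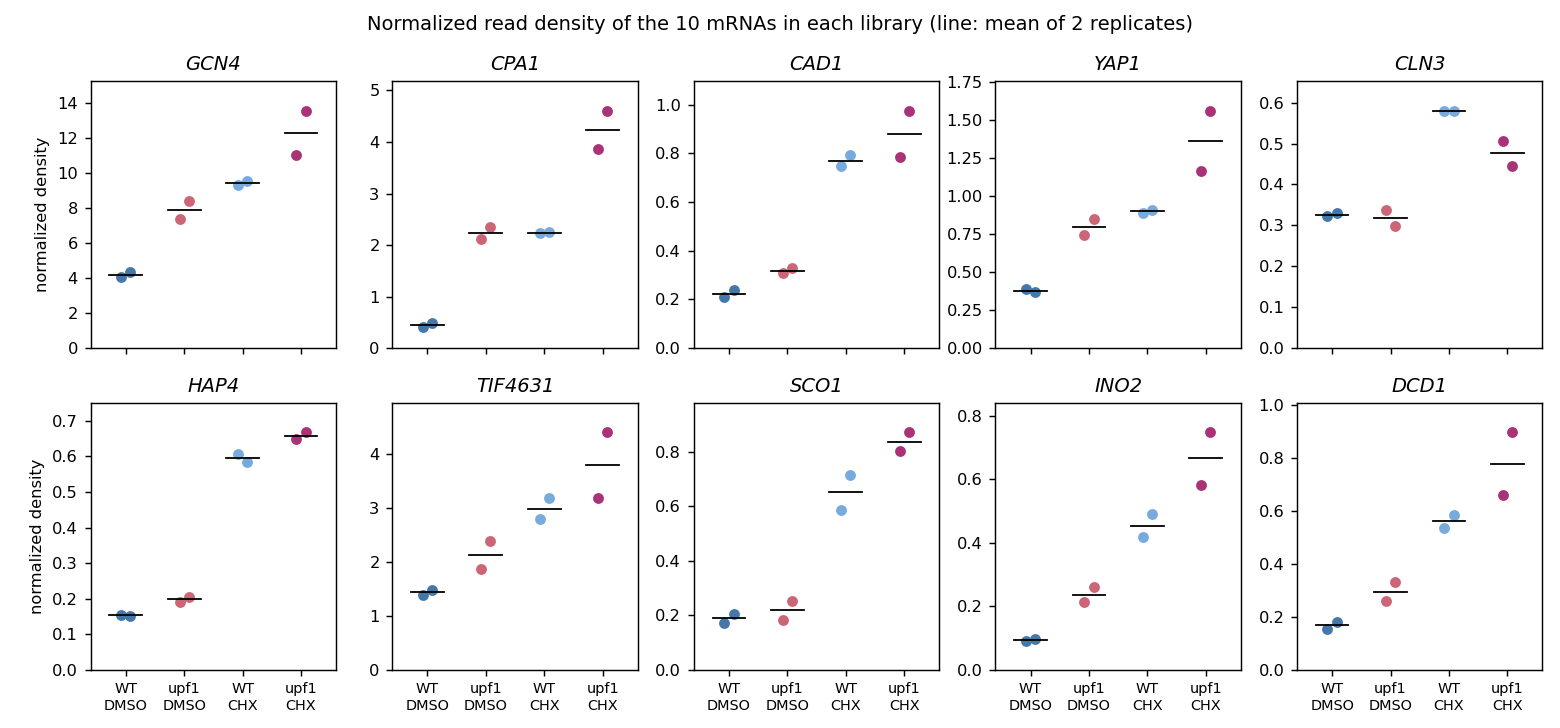
Normalized read density of each of the 10 mRNAs (y axis, from 0, own scale per panel) in the 4 groups; points are the 2 libraries of a group and lines their means. CPA1 rises from 0.406 and 0.482 in WT with DMSO to 2.11 and 2.35 in upf1 with DMSO, whereas the CLN3 and SCO1 points of these groups overlap.

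Loss of Upf1 in cells with DMSO went with a higher density of 8 of the 10 mRNAs on the deposited scale, but only 4 of them, CPA1, INO2, YAP1 and GCN4, were also higher after rescaling on mRNAs. CPA1 stood out from the other 9 in size, at 4.98-fold. CLN3 and SCO1 were called on neither side on the deposited scale and lower on the rescaled one. The count of 8 has to be read against a background in which 66.7% of protein-coding genes were called higher and 0.407% lower on the deposited scale (limma, adjusted p under 0.05). On the rescaled scale 4 of the 10 were called higher and 3 lower, against 23.3% and 31.4% of protein-coding genes. The median log2 change of the 10 was 0.67 on the deposited scale, against 0.57 for protein-coding genes, and -0.02 against -0.11 after rescaling. On either scale 5 of the 10 lay above the protein-coding median. As RNA came from whole cultures, fewer cells expressing a gene and less RNA per cell cannot be told apart.

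CPA1 (YOR303W, chromosome XV, 882899 to 884134, plus strand) encodes the small subunit of the arginine-specific carbamoyl phosphate synthetase. Its density was 0.406 and 0.482 (WT) and 2.11 and 2.35 (upf1) with DMSO, and 2.23 and 2.25 (WT) and 3.86 and 4.61 (upf1) with CHX. The upf1 libraries lay above the WT libraries in both treatments, and on the deposited scale both upf1 libraries with DMSO were close to the level that WT reached with CHX. Rescaled on mRNAs they were above it, at 2.87 and 2.77 against 1.64 and 1.53. The log2 change in upf1 with DMSO was 2.32 (SE 0.15, limma adjusted p = 6.58e-07), above that of 96.9% of protein-coding genes. After rescaling it was 1.62 (SE 0.08, limma adjusted p = 5.58e-06), a 3.08-fold rise.

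INO2 (YDR123C, chromosome IV, 698554 to 699468, minus strand) encodes an activator of phospholipid synthesis genes that binds DNA with Ino4. Its density was 0.0913 and 0.0955 (WT) and 0.213 and 0.261 (upf1) with DMSO, and 0.418 and 0.490 (WT) and 0.583 and 0.749 (upf1) with CHX. The genotypes did not overlap in either treatment on either scale. The rise in upf1 with DMSO was 1.29 on the log2 scale (SE 0.18, limma adjusted p = 1.09e-04), which is 2.44-fold, and 0.62 after rescaling (adjusted p = 6.71e-04).

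YAP1 (YML007W, chromosome XIII, 253848 to 255800, plus strand) encodes the main transcriptional activator of the oxidative stress response. Its density was 0.387 and 0.369 (WT) and 0.745 and 0.846 (upf1) with DMSO, and 0.890 and 0.910 (WT) and 1.16 and 1.56 (upf1) with CHX. Again the genotypes did not overlap in either treatment on either scale. The log2 change in upf1 with DMSO was 1.06 (SE 0.16, limma adjusted p = 2.27e-04), or 2.09-fold, and 0.37 after rescaling (adjusted p = 0.00541).

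GCN4 (YEL009C, chromosome V, 138918 to 139763, minus strand) encodes the activator of amino acid synthesis genes whose translation is controlled by its 4 upstream frames. Its density was 4.07 and 4.34 (WT) and 7.35 and 8.41 (upf1) with DMSO, and 9.30 and 9.53 (WT) and 11.0 and 13.6 (upf1) with CHX. The upf1 libraries were higher than the WT libraries in both treatments on the deposited scale. After rescaling the genotypes overlapped with CHX, at 6.82 and 6.50 (WT) and 6.63 and 6.66 (upf1). With DMSO the log2 change was 0.90 (SE 0.13, limma adjusted p = 1.70e-04), or 1.87-fold, but after rescaling it was 0.20 (adjusted p = 0.0199). That rescaled call was lost when any of the 4 libraries with DMSO was left out, with adjusted p up to 0.0969.

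For TIF4631 and CAD1 the change without Upf1 was close to that of the median mRNA, and for DCD1 it was 0.22 above it (log2, deposited scale). DCD1 (YHR144C, chromosome VIII, 387788 to 388726, minus strand), the deoxycytidylate deaminase, had a density of 0.154 and 0.182 (WT) and 0.260 and 0.330 (upf1) with DMSO, and 0.534 and 0.586 (WT) and 0.658 and 0.896 (upf1) with CHX. TIF4631 (YGR162W, chromosome VII, 824059 to 826917, plus strand), the main form of the initiation scaffold eIF4G, had 1.39 and 1.48 (WT) and 1.86 and 2.38 (upf1) with DMSO, and 2.80 and 3.18 (WT) and 3.18 and 4.40 (upf1) with CHX. On this deposited scale the genotypes of DCD1 did not overlap in either treatment, nor did those of TIF4631 with DMSO. With CHX the highest WT and the lowest upf1 library of TIF4631 both rounded to 3.18. After rescaling the genotypes of DCD1 overlapped in both treatments, at 0.325 and 0.365 (WT) and 0.354 and 0.388 (upf1) with DMSO. Those of TIF4631 with DMSO were then apart with upf1 lower, at 2.93 and 2.98 (WT) and 2.53 and 2.80 (upf1). CAD1 (YDR423C, chromosome IV, 1318046 to 1319275, minus strand), a paralog of YAP1 named for the cadmium resistance it gives, had 0.208 and 0.237 (WT) and 0.309 and 0.329 (upf1) with DMSO, and 0.747 and 0.795 (WT) and 0.784 and 0.975 (upf1) with CHX. The deposited CAD1 ranges overlapped with CHX and were apart with DMSO, while after rescaling upf1 was the lower genotype in both treatments. On the deposited scale the log2 changes with DMSO were 0.79 for DCD1, 0.55 for TIF4631 and 0.51 for CAD1 (limma adjusted p = 0.00454, 0.0194 and 0.0166). After rescaling DCD1 was at 0.10, with a 95% interval of -0.12 to 0.32 and an adjusted p of 0.396. TIF4631 turned to -0.15 (interval -0.33 to 0.04, limma adjusted p = 0.166) and CAD1 to -0.18 (limma adjusted p = 0.0866). Without WT with DMSO replicate 1, or without upf1 with DMSO replicate 2, the deposited-scale calls of TIF4631, CAD1 and HAP4 were lost. Their log2 changes were 0.51, 0.42 and 0.38 without the former library, and 0.38, 0.46 and 0.32 without the latter. The protein-coding median was then 0.53 and 0.48.

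HAP4, SCO1 and CLN3 stood lowest among the 10 in this comparison. HAP4 (YKL109W, chromosome XI, 232227 to 233891, plus strand), the activating subunit of the Hap complex that drives respiratory genes, had a density of 0.155 and 0.150 (WT) and 0.192 and 0.203 (upf1) with DMSO, and 0.606 and 0.586 (WT) and 0.648 and 0.668 (upf1) with CHX. Its genotypes were apart in both treatments, by little, with upf1 higher on the deposited scale and lower after rescaling. SCO1 (YBR037C, chromosome II, 310565 to 311452, minus strand), a copper-binding protein of the mitochondrial inner membrane needed for cytochrome c oxidase, had 0.172 and 0.205 (WT) and 0.184 and 0.253 (upf1) with DMSO, and 0.586 and 0.717 (WT) and 0.804 and 0.873 (upf1) with CHX. The deposited SCO1 ranges of the genotypes overlapped with DMSO and not with CHX, and the rescaled ones overlapped with CHX and not with DMSO. CLN3 (YAL040C, chromosome I, 65778 to 67520, minus strand), the G1 cyclin that acts upstream of Start, had 0.323 and 0.330 (WT) and 0.337 and 0.297 (upf1) with DMSO, and 0.579 and 0.580 (WT) and 0.507 and 0.446 (upf1) with CHX. CLN3 was the only one of the 10 whose upf1 libraries with CHX both lay below the WT libraries on the deposited scale, and after rescaling CAD1 and HAP4 did so too.

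HAP4 passed the test on opposite sides on the 2 scales, with a log2 change of 0.36 on the deposited scale (SE 0.14, limma adjusted p = 0.0448) and -0.32 after rescaling (adjusted p = 0.0401). Both calls were lost when any single library was left out, other than an upf1 library with CHX (limma adjusted p up to 0.192 and 0.169). SCO1 was at 0.20 on the deposited scale, with a 95% interval of -0.22 to 0.61 (limma adjusted p = 0.378), and at -0.49 after rescaling (adjusted p = 0.0110). CLN3 was at -0.04, with an interval of -0.37 to 0.28 (limma adjusted p = 0.811), and at -0.74 after rescaling (adjusted p = 0.00816). Its deposited change lay above that of only 3.54% of protein-coding genes, and that of SCO1 above 13.4%. The rescaled call of SCO1 was lost without WT with DMSO replicate 2 or upf1 with DMSO replicate 1 (limma adjusted p up to 0.0665), and that of CLN3 without upf1 with DMSO replicate 2 (adjusted p = 0.0504).

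**Figure D3:**
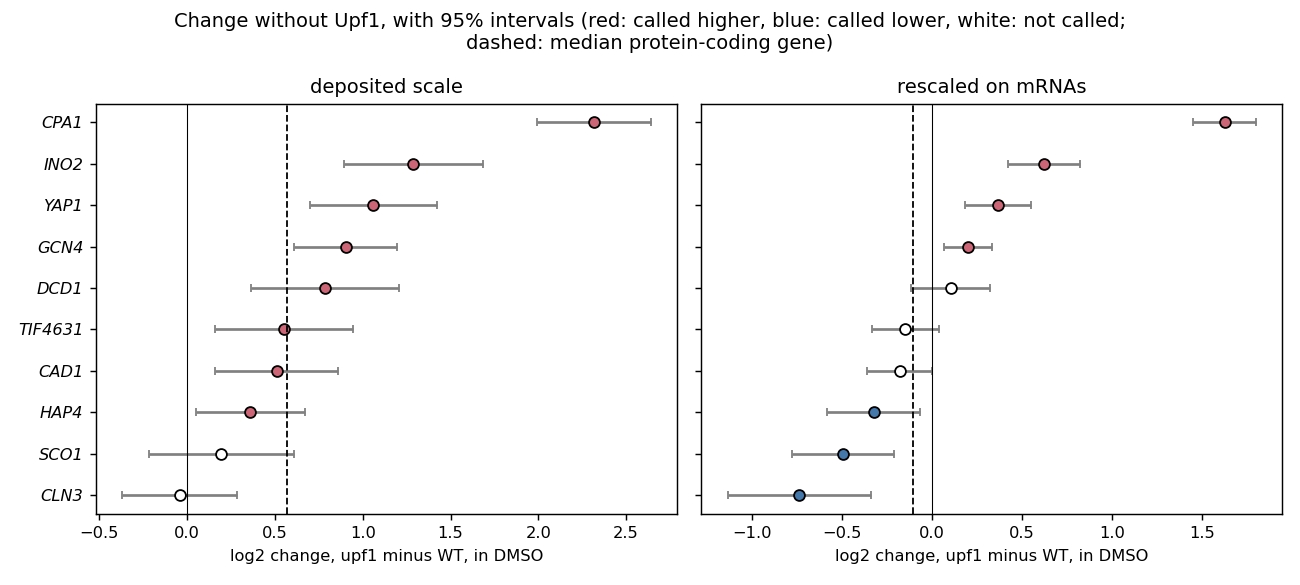
Log2 change in upf1 against WT with DMSO (x axis) for each of the 10 mRNAs, on the deposited scale and rescaled on mRNAs; points with 95% intervals, red where called higher and blue where called lower, with the protein-coding median as a dashed line. CPA1 lies at 2.32 and 1.62, far right of the dashed lines at 0.57 and -0.11, and CLN3 is the lowest in both panels at -0.04 and -0.74.

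The same comparison with translation blocked by CHX gave fewer calls. CPA1 and YAP1 were higher in upf1 than in WT on the deposited scale, 2 of the 10, against 19.8% of protein-coding genes called higher and 0.339% lower. The log2 change of CPA1 was 0.91 (limma adjusted p = 0.00436) and that of YAP1 0.58 (adjusted p = 0.0352), while INO2 was at 0.54 (adjusted p = 0.0580) and GCN4 at 0.38 (adjusted p = 0.0707). After rescaling, CPA1 was the 1 member called higher, at 0.53 (limma adjusted p = 0.00750), and CLN3 the 1 called lower, at -0.65 (adjusted p = 0.0415), against 7.6% and 11.4% of protein-coding genes. The YAP1 call and the rescaled CLN3 call were lost without any one of the 4 WT libraries or without upf1 with CHX replicate 2 (limma adjusted p up to 0.188 and 0.194), and the rescaled CPA1 call without WT with CHX replicate 1 (adjusted p = 0.0504). The median of the 10 was 0.37 on the deposited scale, against 0.32 for protein-coding genes.

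**Figure D4:**
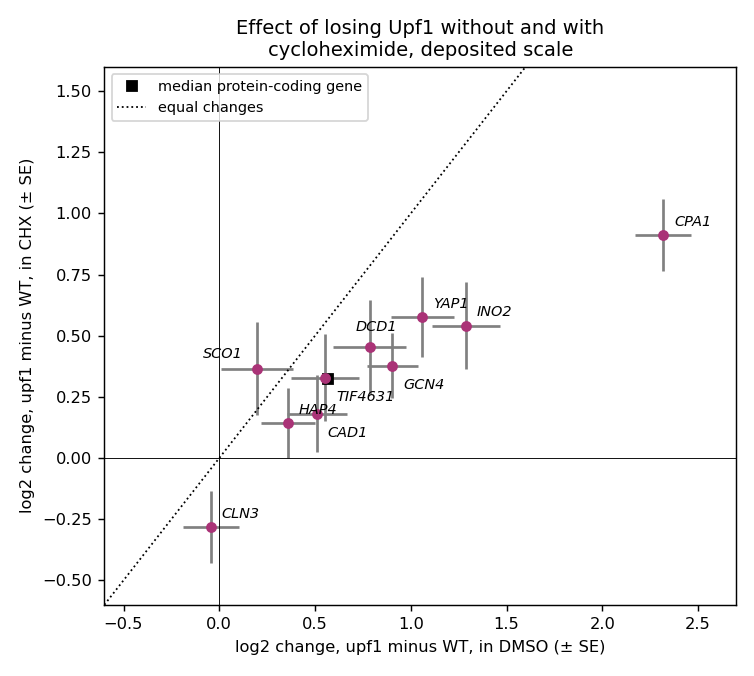
Log2 change in upf1 against WT with DMSO (x axis) and with CHX (y axis) on the deposited scale, with SE bars; the square is the median protein-coding gene and the dotted line marks equal change. CPA1 falls farthest below the line, at 2.32 against 0.91, and SCO1 lies above it, at 0.20 against 0.37.

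CHX raised every one of the 10 mRNAs in both genotypes on the deposited scale. In WT 10 of 10 were called higher, against 97.7% of protein-coding genes higher and 0 lower, with log2 changes from 0.82 for CLN3 to 2.32 for CPA1. Rescaled on mRNAs, CPA1 (0.80), INO2 (0.72), HAP4 (0.42) and CAD1 (0.25) were called higher, and CLN3 (-0.70), TIF4631 (-0.48), GCN4 (-0.38) and YAP1 (-0.29) lower, against 34.9% and 30.7% of protein-coding genes. In upf1 cells 10 of 10 were again called higher on the deposited scale, against 95.5% of protein-coding genes higher and 0.0509% lower, from 0.58 for CLN3 to 1.93 for SCO1. After rescaling, SCO1 (0.73), HAP4 (0.51), INO2 (0.26) and CAD1 (0.23) were called higher in upf1 and CLN3 (-0.62), GCN4 (-0.58), YAP1 (-0.45), TIF4631 (-0.39) and CPA1 (-0.30) lower, against 22.1% and 28.8%. CPA1 was thus called on opposite rescaled sides in the 2 genotypes.

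The WT libraries with DMSO serve as controls both for CHX in WT and for the loss of Upf1, so values of these comparisons are set side by side without a test of their likeness. CPA1 was at 2.32 with CHX and 2.32 without Upf1, INO2 at 2.21 and 1.29, YAP1 at 1.24 and 1.06, and GCN4 at 1.16 and 0.90, all on the deposited log2 scale. For the other 6, HAP4 was at 1.93 and 0.36, CAD1 at 1.77 and 0.51, SCO1 at 1.76 and 0.20, DCD1 at 1.71 and 0.79, TIF4631 at 1.05 and 0.55, and CLN3 at 0.82 and -0.04. After rescaling the values were less alike for CPA1, at 0.80 with CHX and 1.62 without Upf1, and close for INO2, at 0.72 and 0.62. They had opposite signs for YAP1, at -0.29 and 0.37, and for GCN4, at -0.38 and 0.20.

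Whether CHX acted differently in the genotypes was tested as the difference of its log2 effects, upf1 minus WT. CPA1 was the only member called, at -1.41 (SE 0.21, limma adjusted p = 0.00126), 1 of 10 against 15% of protein-coding genes called lower and 0.119% higher. CHX raised CPA1 5.01-fold in WT and 1.89-fold in upf1. After rescaling, CPA1 at -1.09 (limma adjusted p = 8.03e-04) and INO2 at -0.46 (adjusted p = 0.0298) were called lower, 2 of 10, against 13.5% lower and 4.15% higher. On the deposited scale INO2 was at -0.75 (limma adjusted p = 0.0522), GCN4 at -0.52 (adjusted p = 0.0656) and YAP1 at -0.48 (adjusted p = 0.159). SCO1 was the 1 member with a positive difference on that scale, 0.17, with a 95% interval of -0.42 to 0.76.

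The ratio of a member to a related gene within a library does not depend on the scale, except through the small constant added to densities. For 6 such ratios the genotypes were compared by an exact two-sided permutation test of the difference averaged over the treatments. The smallest p that the 36 arrangements of labels within treatments allow is 0.0556, so no pair could pass 0.05.

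HAP4 was lower against HAP5, another subunit of its complex, by 1.57 with DMSO (a difference of -1.57) and by 0.76 with CHX (-0.76), in upf1 minus WT. The log2 ratio of HAP4 to HAP5 was 1.14 and 1.11 (WT) and -0.28 and -0.61 (upf1) with DMSO, and 1.18 and 1.01 (WT) and 0.43 and 0.24 (upf1) with CHX. HAP5 itself rose in upf1 cells with DMSO, by 1.93 on the deposited log2 scale and 1.28 after rescaling (limma adjusted p = 5.38e-06 and 3.92e-05). HAP5 is also a member of the Hap complex and binds DNA with Hap2 and Hap3.

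The paralogs CAD1 and YAP1 both carry upstream frames, and their log2 ratio was lower in upf1 by 0.55 with DMSO (a difference of -0.55) and by 0.40 with CHX (-0.40). It was -0.88 and -0.63 (WT) and -1.26 and -1.35 (upf1) with DMSO, and -0.25 and -0.19 (WT) and -0.57 and -0.67 (upf1) with CHX. CLN3 was lower against the G1 cyclin CLN2, by differences of -0.51 with DMSO and -0.48 with CHX. For HAP4 to HAP5, CAD1 to YAP1 and CLN3 to CLN2, the genotypes did not overlap in either treatment and the exact two-sided permutation p was 0.0556 (adjusted over the 6 pairs 0.111). The other 3 pairs overlapped in at least 1 treatment, SCO1 to SCO2 and INO2 to INO4 with CHX only. With DMSO their differences were -0.41 for SCO1 to SCO2 and -0.19 for INO2 to INO4, and with CHX 0.02 and 0.01. TIF4631 to TIF4632 overlapped in both treatments, with differences of 0.18 with DMSO and 0.06 with CHX. Averaged over treatments, TIF4631 to its paralog TIF4632 differed by 0.12 (exact permutation p = 0.222), SCO1 to its paralog SCO2 by -0.20 (exact p = 0.278) and INO2 to its partner INO4 by -0.09 (exact p = 0.5). Reads from stretches that TIF4631 and TIF4632 share could be split or lost in counting, so their ratio is uncertain.

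**Figure D5:**
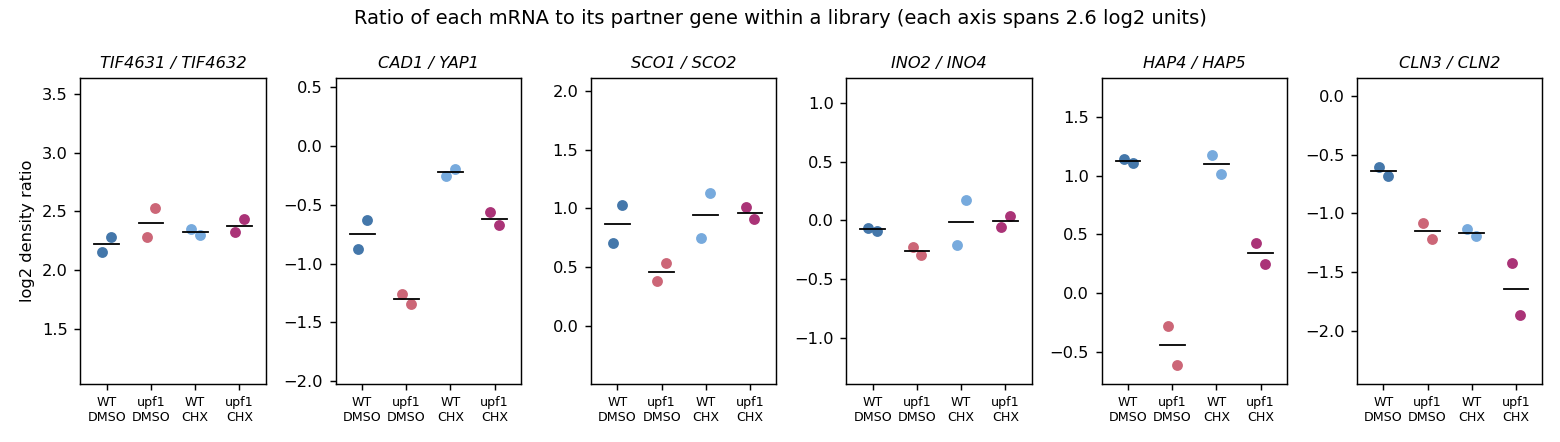
Log2 ratio of density of each member to its related gene (y axis, 2.6 log2 units in each panel) in the 4 groups; points are the 2 libraries of a group. HAP4 to HAP5 lies at 1.14 and 1.11 in WT with DMSO and at -0.28 and -0.61 in upf1 with DMSO, and the genotypes overlap with CHX for SCO1 to SCO2 and INO2 to INO4.

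The CPA1 frame itself is annotated as an open reading frame, YOR302W (chromosome XV, 882765 to 882842). Its feature was 1465 nt long, more than the 1236 nt of CPA1 and far more than the 78 nt frame, so it takes in more than the frame and is not independent of CPA1. Its density was 0.361 and 0.439 (WT) and 2.04 and 2.22 (upf1) with DMSO, and 2.10 and 2.12 (WT) and 3.66 and 4.30 (upf1) with CHX. These values lie close below those of CPA1 in each library.

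Genes with the most similar pattern were sought for the 4 members higher without Upf1 on both scales, by Pearson correlation of rescaled log2 values over the 8 libraries among 5611 protein-coding genes. The libraries share their group structure, so these are descriptions. For CPA1 the nearest were YOR302W (r = 0.9997) and SAS2 (0.998), and for GCN4 they were PCL5 and CTF18 (both 0.993). For INO2 they were RDS2 and MLH2 (both 0.995). For YAP1 they were SAS3 (0.978) and GAS2 (0.977). SAS2, RDS2 and MLH2 had rescaled log2 changes of 1.02, 0.99 and 0.76 in upf1 with DMSO. The changes were smaller for PCL5 (0.37) and CTF18 (0.26), and for SAS3 (0.41) and GAS2 (0.54).

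A list of 20 other genes with reported upstream frames was chosen with earlier results of these data known, so its counts are a description. It was higher without Upf1 in 19 cases and lower in none on the deposited scale with DMSO (limma). There 66.7% of protein-coding genes were called higher, and the median was 0.69 against 0.57 for protein-coding genes. After rescaling, 7 were called higher, 3 lower and 10 neither, against 23.3% of protein-coding genes higher and 31.4% lower, with a median of -0.0036 against -0.11. The largest changes among those called on both scales were in PPR1, the activator of pyrimidine synthesis genes, at 1.55 on the deposited and 0.90 on the rescaled scale, SPH1 at 1.34 and 0.69, and ARV1, a sterol transport gene, at 1.28 and 0.60. With CHX, 3 of the 20 were called higher in upf1 on the deposited scale, against 19.8% of protein-coding genes, and after rescaling 2 were higher and 3 lower, against 7.6% and 11.4%. CHX in WT cells gave 20 of 20 higher on the deposited scale, against 97.7%, and after rescaling 9 higher and 3 lower, against 34.9% and 30.7%.

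Partners and targets of the members, also chosen with earlier results of these data known, were followed as lists in upf1 against WT with DMSO. Their counts are read against 66.7% of protein-coding genes called higher on the deposited scale, and 23.3% higher and 31.4% lower after rescaling. Of 12 genes that control GCN4 translation, 9 were called higher on the deposited scale, and after rescaling 0 were higher and 8 lower. The 3 with the largest change among those called on both scales, GCD7, SUI3 and GCD11, subunits of the initiation factors eIF2B and eIF2, turned from 0.45, 0.44 and 0.42 to -0.25, -0.26 and -0.28. Of 27 target genes of Gcn4, 16 were called higher and 0 lower (median 0.45), and after rescaling 6 were higher and 11 lower (median -0.25). The largest deposited changes among those called on both scales were in ARG8 (2.14 deposited, 1.46 rescaled), SER3 (1.99 and 1.30) and ARG3 (1.85 and 1.35). These are enzymes of arginine and serine synthesis, with 14 to 204 reads of ARG3 per library. SER3 is also known to be repressed by transcription of an upstream non-coding RNA. Of 12 genes of arginine metabolism other than CPA1, 9 were called higher, and after rescaling 5 were higher and 1 lower. They included ARG81, a regulator of arginine genes, at 1.92 and 1.25.

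Of 18 tested targets of Yap1 and Cad1 (19 listed), 8 were called higher, against the 66.7% of protein-coding genes above, and after rescaling 4 were higher and 10 lower. The 3 with the largest deposited change among those called on both scales were all higher, unlike most of the list after rescaling. GTT2, a glutathione transferase, was at 2.95 and 2.31, FLR1, a drug exporter, at 2.94 and 2.27, and ATR1, another exporter, at 1.49 and 0.80. Of the 14 genes around Ino2, 9 were called higher, and after rescaling 3 were higher and 6 lower. INO1, the inositol synthesis enzyme that Ino2 activates, was at 2.10 and 1.49, INO4 at 1.47 and 0.81, and PSD1, a phosphatidylserine decarboxylase, at 0.87 and 0.18. Both genes of the Ino2 and Ino4 heterodimer were thus higher without Upf1 on both scales. Of 8 genes of deoxynucleotide supply, the pathway of DCD1, 7 were called higher, and after rescaling 3 were higher and 4 lower. CDD1, a cytidine deaminase, was at 2.22 and 1.54, RNR3 at 1.31 and 0.71, and CDC8 at 1.21 and 0.52. Genes of the Ino2 and deoxynucleotide lists were named by the same rule. As none of these lists had a gene called lower on the deposited scale, only genes higher there could be named.

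The lists around HAP4, TIF4631, CLN3 and SCO1 are read against the same shares of protein-coding genes. Of 23 Hap subunits and respiratory targets, 6 were called higher on the deposited scale (median 0.22), and after rescaling 1 was higher, HAP5, and 17 were lower (median -0.46). COX13, a cytochrome c oxidase subunit, turned from 0.46 to -0.24. Of 8 genes of the cap-binding complex and its regulators, 1 was called higher, CDC33, the cap-binding protein eIF4E, at 0.41, and after rescaling all 8 tested were lower, CDC33 at -0.29. Of 14 genes of G1 control, 10 were called higher on the deposited scale and none after rescaling, when 4 were lower. RNR1 and CLN1, called on both scales, turned from 0.43 and 0.40 to -0.27 and -0.30. Of 12 genes of cytochrome oxidase assembly, 6 were called higher, and after rescaling 2 were higher, COX19 (1.94 deposited, 1.26 rescaled) and CMC2 (0.94 and 0.25), and 6 lower. Of the 3 core NMD genes, NAM7 was lower as labelled, and NMD2, the Upf2 gene, was higher at 1.10 and 0.42. UPF3 was called higher on the deposited scale, at 0.54 (limma adjusted p = 0.0148), and turned to -0.13 after rescaling (adjusted p = 0.325).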

How the data were processed

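Per the labels' protocols, the 8 libraries came from total yeast RNA with an added external standard, after removal of ribosomal RNA, by a kit that keeps strand. The authors deposited a signal per feature and library, a normalized read density. Tools named in the submitters' processing notes are DESeq2, featureCounts 2.0.0, HISAT2 2.2.0 and Trim Galore, with build R64. Neither the annotation nor the strand setting of counting is stated in those sources. The values of 11986 features were whole multiples of 1 read within 0.001 reads, which gave back reads, lengths and a factor for each library, and a scaling on 76 snoRNAs gave the same factors within 0.402%. Between replicates the chi-square of reads per feature was 4.05 to 17.24, so none was counted as a duplicate.

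Log2(density + 0.005488), with the 5th percentile of values above 0 as pseudocount, was fitted for the 11700 features with a mean density at or above it by limma 3.58.1 under R 4.3.3, using all 8 libraries, 1 mean for each group, 4 residual degrees of freedom, a mean-variance trend and Benjamini-Hochberg adjustment over all features (threshold 0.05). Fold changes on this scale understate the change of low genes. Rescaled values were divided by each library's median ratio across 5817 protein-coding genes. Features were matched by identifier to the R64 reference, whose coordinates are printed. Ratios to a partner gene were tested by exact permutation within treatments. Of the code, only the limma fit was tested on simulated data, for upf1 against WT with DMSO.

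Members, pairs and gene lists were chosen with earlier results of these data known. One further gene and its comparison are not reported here. All members and the other partners are named, with up to 3 genes per list having the largest change among those called on both scales in upf1 against WT with DMSO, and the 2 genes most like each member that was higher on both. Groups and replicate numbers come from the sample titles. Alternatives tried were the rescaling, other pseudocounts, no filter, voom on recovered reads, only the groups compared, the replicate number as a block, and leaving out each library; some of these on the rescaled values were added after seeing the data. The recovered reads limit the precision of low genes, and no counting interval is given beside the replicate spread.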

Additional observations from a re-analysis of the deposited data

Results flagged for a closer look

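The effect of CHX on CPA1 differed between the genotypes by the interaction term of the limma fit. It was the only such difference among the 10 mRNAs on the deposited scale, where 15% of protein-coding genes were called lower. CHX raised CPA1 by 2.32 on the log2 scale in WT and by 0.92 in upf1, a difference of -1.41 (SE 0.21, adjusted p = 0.00126), against a median of -0.27 for protein-coding genes. Leaving out each library in turn gave -1.53 to -1.28, and rescaling on mRNAs gave -1.09. After rescaling INO2 was called lower too, at -0.46 (limma adjusted p = 0.0298). The cause was not tested.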

How the results depend on the processing

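Rescaling on mRNAs changed most of the counts: with DMSO the members called higher in upf1 went from 8 to 4 and lower from 0 to 3, with CHX from 2 to 1 and from 0 to 1. For CHX in WT it gave 4 higher and 4 lower, for CHX in upf1 4 and 5, and for the difference of CHX effects 2 lower. Beside UPF3 (above), and among the genes followed through all settings, it turned the sign of several genes in upf1 with DMSO. They were the members TIF4631 (-0.15), CAD1 (-0.18), HAP4 (-0.32) and SCO1 (-0.49), and the partners SCO2 (-0.0692), CLN2 (-0.23) and TIF4632 (-0.32). Of the list genes, rescaling turned COX13 (-0.24), GCD7 (-0.25), SUI3 (-0.26), RNR1 (-0.27), GCD11 (-0.28), CDC33 (-0.29) and CLN1 (-0.30). In upf1 with CHX it turned GCN4 (-0.0026), SCO1 (-0.0117), TIF4631 (-0.0525), CAD1 (-0.20) and HAP4 (-0.23). For CHX it turned YAP1 (-0.29), GCN4 (-0.38), TIF4631 (-0.48) and CLN3 (-0.70) in WT, CPA1 (-0.30), TIF4631 (-0.39), YAP1 (-0.45), GCN4 (-0.58) and CLN3 (-0.62) in upf1, and the differences of CLN3 (0.0832), HAP4 (0.0904) and TIF4631 (0.0943).

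For upf1 against WT with CHX the 2 members called higher became 4 with voom, 1 with only the groups compared and 7 with the replicate block. The calls moved over all features too. Of 11700 tested, 1931 were called higher in the main fit and 2864 with voom. With only the groups compared 1767 were higher, and 3441 with the replicate block. The 1 member with a lower CHX effect in upf1 became 2 with 0.5 times the pseudocount, 3 with voom and 3 with the replicate block. Over all features tested, the 2964 called lower became 3122, 4015 and 3574 in these settings. The replicate numbers only share a label, since replicate differences of the groups correlated at -0.0238 to 0.0758. HAP4 was no longer called in upf1 with DMSO at 10 times the pseudocount (adjusted p = 0.0741).

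Leaving out each library in turn gave 5 to 8 members higher in upf1 with DMSO, 1 to 6 with CHX, and 1 to 4 with a lower CHX effect. On the rescaled values it gave 3 to 4 higher and 1 to 3 lower with DMSO, and 0 to 1 higher and 0 to 1 lower with CHX. In upf1 with DMSO it gave -0.0305 to 0.42 for SCO1 and -0.13 to 0.045 for CLN3. The difference of CHX effects was -0.46 to 0.0084 for TIF4631 and -0.0556 to 0.40 for SCO1, and the INO2 to INO4 ratio -0.18 to 0.0064. Rescaled changes in upf1 with CHX were -0.0363 to 0.0312 for GCN4 (2e-04 without upf1 with CHX replicate 1), -0.14 to 0.0347 for TIF4631 and -0.10 to 0.0812 for SCO1 (0.0742 without upf1 with CHX replicate 2, 0.0021 with voom). Where a lone library was left in a group it was assumed to vary like the others, and the cause of these shifts was not tested.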

Other observations

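The paralogs CAD1 and YAP1 shifted against each other in opposite directions with CHX and with the loss of Upf1. Their mean log2 ratio was -0.75 (WT) and -1.30 (upf1) with DMSO, and -0.22 (WT) and -0.62 (upf1) with CHX. The ratio of CLN3 to CLN2 was lower with each, at -0.64 (WT) and -1.15 (upf1) with DMSO and -1.16 (WT) and -1.64 (upf1) with CHX. The ratio of HAP4 to HAP5 in WT cells was 1.13 with DMSO and 1.10 with CHX, and in upf1 cells -0.45 with DMSO and 0.34 with CHX. These ratios share the WT libraries with DMSO, and no test was made of the shifts with CHX.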
